A study of Mus musculus with 8 samples.

Results

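A set of 8 genes that make, use or carry ketone bodies was measured in brain of fasted and fed mice. The genes are Bdh1, Bdh2, Oxct1, Acat1, Slc16a1, Slc16a3, Slc16a7 and Bsg. Every probe whose gene name in the array files was one of these 8 symbols was taken, which gave 12 of the 39429 non-control probes, for 8 of the 30210 gene names on the array. The mice had been deprived of food or fed for 17 h, with 4 single-colour arrays per group, 8 in all. No allele, transgene or drug is named for either group, and strain, age and the number of mice per sample are not given in the sources used here, so a p-value here measures the spread among these 8 samples alone, and some of that spread may be technical. Values are scaled log2 signals, that is the log2 of a spot's background-corrected intensity minus the 75th percentile of its array, so that 0 is the level of that percentile and 1 unit is a doubling. A probe's level depends on its own sequence, so levels of different genes were not compared.

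During fasting the liver turns fatty acids into acetoacetate and beta-hydroxybutyrate, which reach the brain in blood and replace part of its glucose. Both cross cell membranes through monocarboxylate transporters of the SLC16 family, which also carry lactate and pyruvate and need a partner glycoprotein such as basigin to reach the membrane. In mitochondria BDH1 oxidises beta-hydroxybutyrate to acetoacetate, OXCT1 gives acetoacetate a coenzyme A taken from succinyl-CoA, and the thiolase ACAT1 splits the product into acetyl-CoA for the citrate cycle. Synthesis in liver mitochondria starts from acetyl-CoA and ends with HMG-CoA lyase, which releases acetoacetate.

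The 60-base probes decide what each value measures, and the first 30 bases of those the results turn on are shown, 5′ to 3′ in the sense of the transcript. Both Slc16a3 probes read almost the same site: they share 53 bases and are shifted by 7, and the capitals mark the run of 23 bases that both stretches hold. The 3 Bdh1 probes lie at different sites of its transcripts, starting at bases 1378, 1488 and 2324. Positions follow the annotation of the array, in mm9. No genome of that build was used here, so the exon or region under a probe was not analysed.
Slc16a3 A_55_P1959425, chr11:120820023-120820082, plus strand: ctgggcaGTGGTCTGTTCACCCTGAGTCCC
Slc16a3 A_55_P2067505, chr11:120820030-120820089, plus strand: GTGGTCTGTTCACCCTGAGTCCCacccttt
Bdh1 A_55_P2181753, chr16:31457249-31457308, plus strand: gtttaccttttgattagctgttgaggatta
Bdh1 A_51_P163106, chr16:31457378-31457437, plus strand: tgggtggccctaaacctcagggccaatatg
Bdh1 A_52_P468343, chr16:31458195-31458254, plus strand: tggtcacctcttctttgtattgggaacttc
Bdh2 A_55_P2119969, chr3:134967309-134967368, plus strand: gagtgtgactctttaatagtctctcgtctc
Acat1 A_51_P319449, chr9:53389868-53389927, minus strand: aataatctaacatccatggacttctattct
Slc16a7 A_55_P1979377, chr10:124665183-124665242, minus strand: ctatagacttctcgacaaggaaaggaagag

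Changes in the ketone body genes were small, and the clearest was a rise of the thiolase Acat1 by 1.19-fold. Of the 12 probes, 11 were well above background on at least 4 of the 8 arrays and were tested. In fasted brain 3 were higher, for Acat1, Bdh1 and Slc16a3, and 1 was lower, for Bdh2, while 7 did not pass (limma, Benjamini-Hochberg adjusted p over all 26066 kept probes). Probes of Oxct1, Slc16a1, Slc16a7 and Bsg did not pass. With the replicate number as a block 2 of the 11 passed, those of Acat1 and Slc16a3.

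The share of ketone body probes that passed has to be read against the whole array, where 16.9% of kept probes passed, 8.4% higher and 8.55% lower. The 4 of 11 probes are 36.4%, but several probes read the same gene. With each gene at its kept probe of highest mean signal, 2 of 8 genes passed, Acat1 and Bdh2, which is 25% beside 18.7% of 14899 genes, 9.53% higher and 9.13% lower. Groups did not overlap for 5 of the 11 probes, beside 24.8% of all kept probes. The median log2 difference was 0.14 over the 11 probes and -0.01 over all kept probes, and the median size of the difference, whatever its direction, was 0.14 and 0.10.

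**Figure D1:**
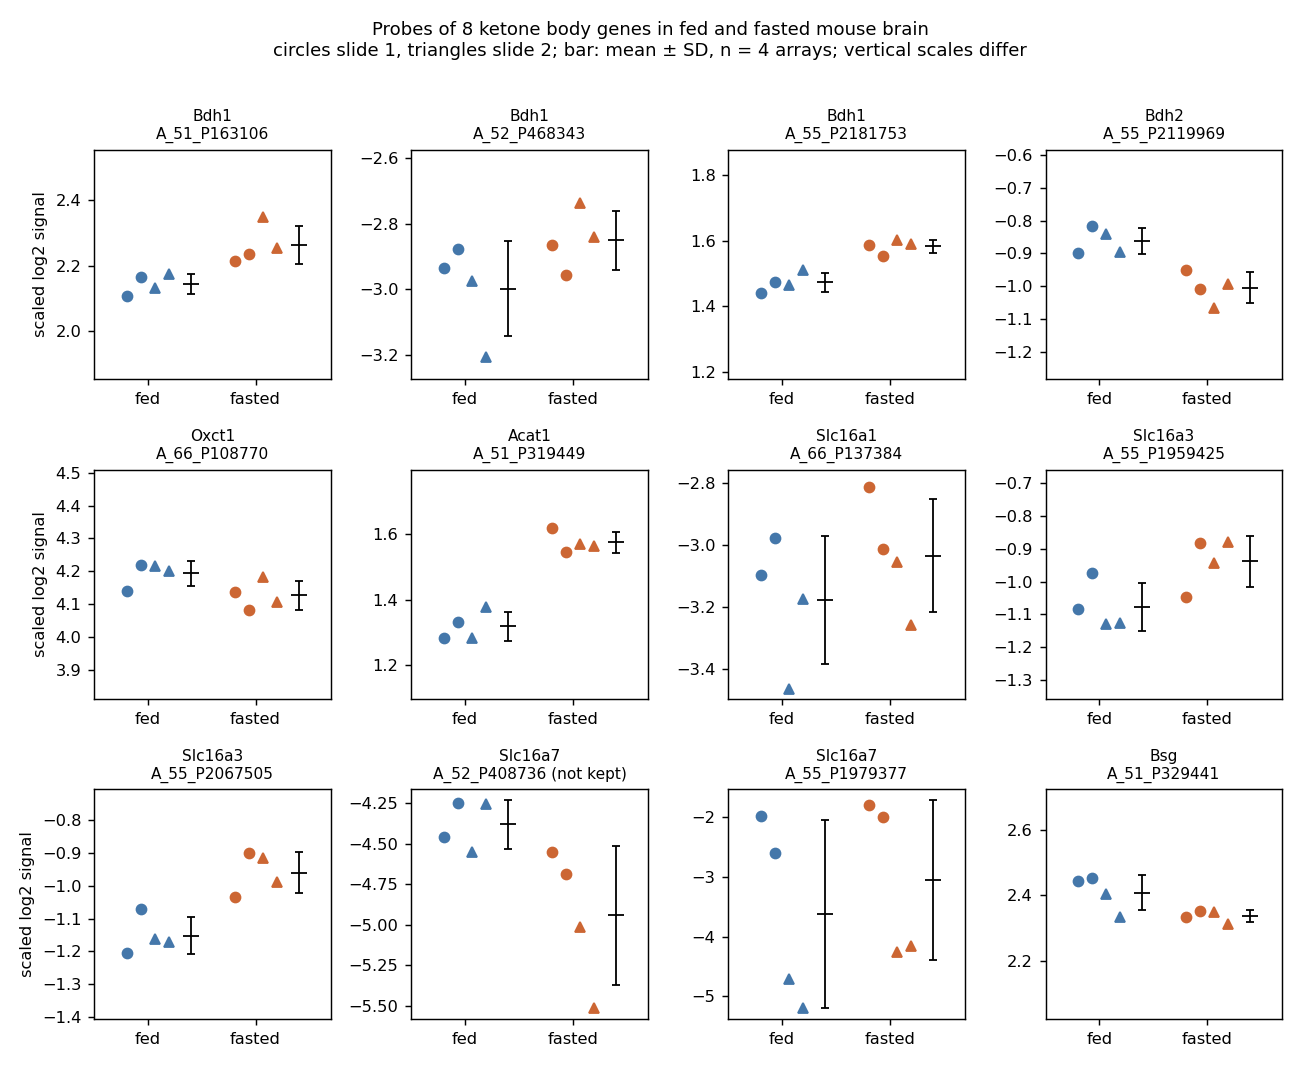
Scaled log2 signal (vertical axis, a different range in each panel) of the 12 probes on each of the 4 fed and 4 fasted arrays, with circles for slide 1, triangles for slide 2 and a bar for the mean ± SD. Fasted and fed points lie apart for Acat1, for Bdh2, for 2 of the 3 Bdh1 probes and for 1 of the 2 Slc16a3 probes, and the kept Slc16a7 probe splits by slide.

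From 24567 to 27220 non-control probes per array (62.3% to 69.0%) cleared background, and no spot was saturated. The share was 66.39% to 69.0% on slide 1 and 62.3% to 65.35% on slide 2. Fed arrays had the higher shares on slide 1 and the lower shares on slide 2. The arrays lay on 2 slides with 2 arrays of each group on each, fasted arrays at positions 1 and 3 and fed arrays at positions 2 and 4, so position cannot be told apart from fasting. All 8 neuronal and all 8 astrocyte markers were measured. So were all 4 fibroblast or meninges markers and 2 of 4 hepatocyte markers, so being measured does not by itself identify the tissue. None of 8 neuronal markers passed, while 6 of 8 microglia markers fell, with a summed linear signal of 22.6 to 25.8 on fasted and 26.7 to 28.9 on fed arrays. Of 8 oligodendrocyte markers 3 fell, with a sum of 112 to 128 against 123 to 138, and astrocyte markers gave 1 rise and 1 fall. In bulk brain RNA fewer cells of a type and less RNA per cell cannot be told apart, and the part of these shifts in the results below was not tested. Fasted replicate 3 stood apart for liver genes: Alb gave -5.41, -3.57, -1.36 and -3.10 in fasted replicates 1 to 4 and -4.48 to -3.90 in fed brain, and the brighter of 2 Serpina1a probes -4.20, -2.55, -0.80 and -2.44 against -3.98 to -2.66. The summed linear signal of the measured hepatocyte markers was 0.0779 to 0.964 on fasted and 0.108 to 0.225 on fed arrays. Neither gene passed, and the other markers of the list of 4, Apoa1 and Fga, were well above background on 0 of the 8 arrays. Without fasted replicate 3, 1 of the 11 ketone body probes passed, that of Acat1 (0.26; limma adjusted p = 0.00976). The count was also 1 without fasted replicate 2, fed replicate 1 or fed replicate 3, and 2 or 3 without any other array, so the drop was not particular to fasted replicate 3.

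Acat1, the mitochondrial thiolase that ends ketone body breakdown and also starts ketone body synthesis, was higher in every fasted array. Its scaled log2 signals were 1.62, 1.55, 1.57 and 1.56 in fasted replicates 1 to 4 and 1.28, 1.33, 1.28 and 1.38 in fed replicates 1 to 4. The lowest fasted value thus lay above the highest fed value. Group means were 1.58 ± 0.03 and 1.32 ± 0.04 (SD, n = 4 each), a log2 difference of 0.26 ± 0.03 (SE; limma adjusted p = 0.00396), or 1.19-fold with a 95% confidence interval of 1.13 to 1.26. The difference was 0.28 on slide 1 and 0.24 on slide 2. It passed in each of the 17 alternatives run on both slides together, where its adjusted p was 0.000884 to 0.0231.

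Bdh1, the mitochondrial dehydrogenase of beta-hydroxybutyrate, had 3 kept probes, all with higher means in fasted brain, of which 1 passed. On the probe that passed, A_55_P2181753, the fasted arrays gave 1.59, 1.55, 1.6 and 1.59 and the fed arrays 1.44, 1.48, 1.47 and 1.51. All fasted values were above all fed values, although the gap between the groups was narrow. The fasted minus fed log2 difference came to 0.11 ± 0.03 (SE, 4 arrays a group; adjusted p = 0.0423 in limma), or 1.08-fold (95% confidence interval 1.03 to 1.13), with 0.11 on each slide. With the replicate block the adjusted p was 0.0813, above the threshold of 0.05. The probe passed in 5 of the 17 alternatives run on both slides (adjusted p = 0.0233 to 0.111), and of the 8 that left out an array it passed without fed replicate 4 alone, with an adjusted p of 0.0479, against 0.0678 to 0.102 in the other 7. The brightest Bdh1 probe, A_51_P163106, gave 2.21, 2.24, 2.35 and 2.26 in fasted and 2.11, 2.17, 2.13 and 2.18 in fed brain. These groups did not overlap either, and the log2 difference of 0.12 ± 0.04 had an adjusted p of 0.0736 in limma. The third probe, A_52_P468343, which reads further downstream, spanned -2.96 to -2.74 in fasted and -3.21 to -2.88 in fed arrays. Its groups overlapped, and its difference of 0.15 ± 0.08 (limma adjusted p = 0.232) came from slide 2, with 0.30 there and -0.01 on slide 1.

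Bdh2, a cytosolic dehydrogenase named for the same reaction, went the other way. Its signals were -0.95, -1.01, -1.07 and -0.99 in fasted replicates 1 to 4 and -0.90, -0.82, -0.84 and -0.89 in fed replicates 1 to 4. Every fasted array lay below every fed array. The fasted mean was lower by a log2 difference of -0.14 ± 0.04 (SE, 4 arrays a group; adjusted p = 0.0372 in limma), a 1.1-fold fall with a 95% confidence interval of 1.04 to 1.17. On slides 1 and 2 the difference was -0.12 and -0.16. Blocking on replicate number gave an adjusted p of 0.0839. The fall passed in 6 of the 17 alternatives run on both slides, where its adjusted p was 0.027 to 0.0925, and of the 8 that left out an array it passed without fasted replicate 1 alone, with an adjusted p of 0.0481, against 0.0558 to 0.0925 in the other 7.

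Oxct1, the transferase that commits acetoacetate to use as fuel, did not pass. Fasted arrays gave 4.14, 4.08, 4.18 and 4.11 and fed arrays 4.14, 4.22, 4.22 and 4.20. The groups overlapped, with fed replicate 1 inside the fasted range. The fasted minus fed log2 difference came to -0.07 ± 0.04 (SE, 4 arrays a group; adjusted p = 0.237 in limma). The 95% confidence interval of the fold, 0.902 to 1.01, excludes a rise of the size measured for Acat1.

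**Figure D2:**
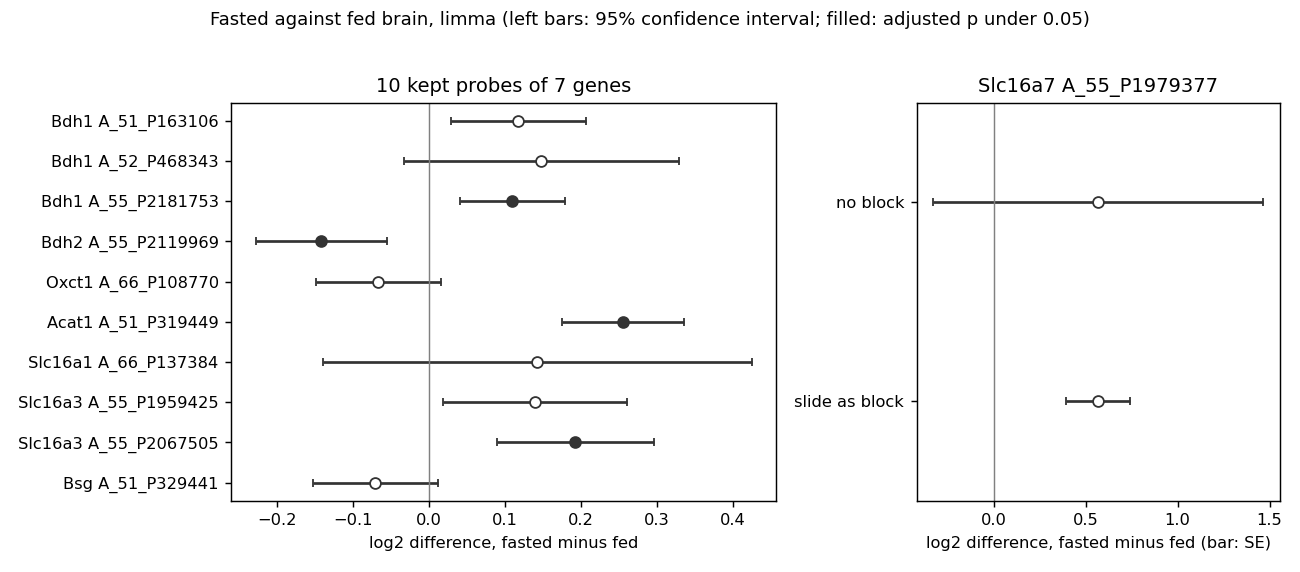
Log2 difference, fasted minus fed, for the 10 kept probes of 7 genes with 95% confidence intervals (left), filled where the limma adjusted p was under 0.05, and for the kept Slc16a7 probe with its SE, without a block and with slide as a block (right). Acat1 at 0.26 stands furthest to the right among the 10 probes, and Bdh2 at -0.14 is the 1 filled point to the left of 0.

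Among the carriers, Slc16a3, which encodes MCT4, a transporter known for lactate export from astrocytes, rose on 1 of its 2 probes. Probe A_55_P2067505 gave -1.03, -0.90, -0.91 and -0.99 in fasted and -1.20, -1.07, -1.16 and -1.17 in fed brain. Its groups did not overlap. The fasted minus fed log2 difference came to 0.19 ± 0.04 (SE, 4 arrays a group; adjusted p = 0.0243 in limma), or 1.14-fold (95% confidence interval 1.06 to 1.23), with 0.17 on slide 1 and 0.21 on slide 2. Leaving out fasted replicate 2 or 3, or fed replicate 1, 3 or 4, raised its adjusted p above the threshold, to 0.0521 to 0.0641, and it passed in the other 3 of these 8 fits. Probe A_55_P1959425, shifted by 7 bases, gave -1.05, -0.88, -0.94 and -0.88 in fasted and -1.08, -0.97, -1.13 and -1.13 in fed brain. Here fasted replicate 1 fell below fed replicate 2, and the difference of 0.14 ± 0.05 did not pass (limma adjusted p = 0.108). The gap between the pair of probes varied from array to array with an SD of 0.06 over the 8 arrays, fasted and fed together. The pair thus gave the same direction and fell on different sides of the threshold.

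Slc16a1, which encodes MCT1, the carrier of brain endothelial cells and glia, was not resolved. The fasted arrays gave -2.81, -3.01, -3.05 and -3.26 and the fed arrays -3.09, -2.98, -3.46 and -3.17. The groups overlapped widely. The log2 difference of 0.14 ± 0.12 (SE, n = 4 per group; limma adjusted p = 0.459) is 1.1-fold with a 95% confidence interval of 0.908 to 1.34, so a rise of Acat1's size is not excluded at this precision. Of 10 endothelial markers 3 rose and 2 fell, with a summed linear signal of 24.5 to 27.9 on fasted and 23.3 to 25.9 on fed arrays, and their part in the Slc16a1 values was not tested.

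Slc16a7, which encodes MCT2, the high-affinity carrier of neurons, was read by 2 probes that differed between slides or lay near background. On the kept probe, A_55_P1979377, fasted replicates 1 to 4 gave -1.79, -1.99, -4.26 and -4.16 and fed replicates 1 to 4 gave -1.97, -2.60, -4.70 and -5.20. Replicates 1 and 2 lay on slide 1 and replicates 3 and 4 on slide 2, and the split between slides was far larger than that between groups. The probe was well above background on 4 fasted and 2 fed arrays. Its mean was 2.50 lower (log2) on slide 2, the fifth largest difference between slides among all 26066 kept probes, where the median size was 0.05 and the 99th percentile 0.55. Its spot lies in row 531 of the array, whose last row of non-control probes is 532, and 226 kept single-spot probes within 5 rows of it had a median size of 0.07. Fasted against fed gave 0.57 ± 0.90 (SE, n = 4 per group; limma adjusted p = 0.706) without a block and 0.57 ± 0.17 with slide as a block (adjusted p = 0.0624), with 0.40 on slide 1 and 0.74 on slide 2. The difference thus missed the threshold in both fits. In fits without a block its size depended on the array left out, from 0.04 without fed replicate 4 to 1.12 without fed replicate 1. Leaving out an array makes the slides unequal between the groups, so these sizes also take in the difference between slides. The other probe, A_52_P408736, was well above background on 1 fasted and 2 fed arrays and was not kept. It gave -5.52 to -4.55 in fasted and -4.55 to -4.25 in fed brain, the opposite order to the kept probe, and with all 39429 probes in the fit its difference was -0.56 ± 0.21 (SE; limma adjusted p = 0.161).

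**Figure D3:**
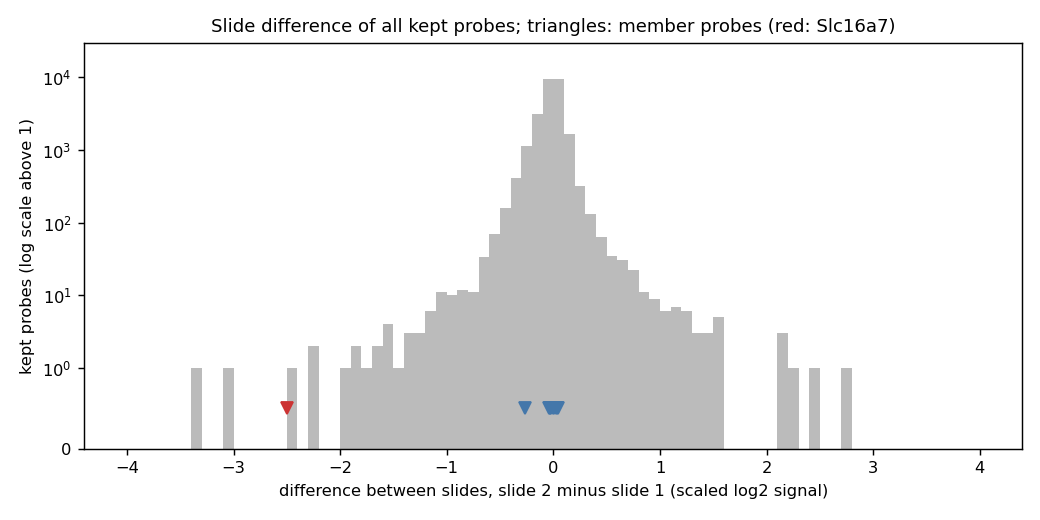
Number of kept probes (vertical axis, log scale above 1) by their difference between slides, slide 2 minus slide 1, in scaled log2 signal. Triangles mark the 11 kept probes of the ketone body genes: the Slc16a7 probe lies at -2.50 and the other 10 lie within 0.26 of 0.

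Bsg, which encodes basigin, the partner that brings MCT1 and MCT4 to the membrane, did not pass. Its signals were 2.33, 2.35, 2.35 and 2.31 in fasted and 2.44, 2.45, 2.40 and 2.33 in fed brain. Fed replicate 4 lay inside the fasted range, and the other fed arrays lay above it. The fasted minus fed log2 difference came to -0.07 ± 0.04 (SE, 4 arrays a group; adjusted p = 0.211 in limma), a fold of 0.952 with a 95% confidence interval of 0.90 to 1.01.

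Among ketogenesis genes and their regulators 2 of 6 measured genes rose and 0 fell, with a median log2 difference of 0.07. Counts of this and the following lists stand beside 9.53% higher and 9.13% lower among all 14899 genes at their brightest kept probe. Ppargc1a, a transcriptional coactivator of mitochondrial genes, gave 2.49, 2.43, 2.38 and 2.39 in fasted and 2.20, 2.07, 2.21 and 2.16 in fed brain. Every fasted array lay above every fed array. The log2 difference of 0.26 ± 0.04 (SE, 4 arrays a group; limma adjusted p = 0.00776) is 1.2-fold, and it passed in each of the 17 alternatives run on both slides. Another Ppargc1a probe gave 0.06 (adjusted p = 0.459). Cpt1a, which admits fatty acids to mitochondria, rose by 1.19-fold (adjusted p = 0.036), and another Cpt1a probe gave 0.28 and also passed (adjusted p = 0.0346). Blocking on replicate number gave the brightest Cpt1a probe an adjusted p of 0.0663, and it passed in 2 of the 8 fits that left out an array, those without fasted replicate 4 or fed replicate 2. Sirt3, a mitochondrial deacetylase, gave 0.12 ± 0.04 and did not pass (adjusted p = 0.0839). Fgf21 was not measured well enough to be tested.

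Among other enzymes of acetoacetate and acetyl-CoA every gene that passed was lower. Of 6 measured, 4 fell and 0 rose, beside 9.13% lower and 9.53% higher among all genes at their brightest kept probe. The median log2 difference was -0.23, beside -0.01 for all kept probes. Hmgcs1, the cytosolic HMG-CoA synthase of the mevalonate pathway, gave 3.45 to 3.66 in fasted and 3.92 to 4.01 in fed brain, a fall of 1.35-fold (limma adjusted p = 0.0029). Acat3 and Acat2, cytosolic thiolases encoded next to each other on chromosome 17, fell by 0.36 and 0.24 on the log2 scale (adjusted p = 0.00685 and 0.0331), against the rise of the mitochondrial thiolase Acat1. Acat2 was named after its value was seen, and its adjusted p was 0.0521 when replicate number was a block. The transcripts of Acat2 and Acat3 were not compared here, so how far each probe separates these neighbouring thiolases is uncertain. Their falls may therefore not be separate within the 4. Acss1, which activates acetate in mitochondria, fell by 0.21 (adjusted p = 0.0258). When an array was left out, Acss1 passed in 2 of 8 fits, without fasted replicate 4 or fed replicate 1, and Acat2 in 2 of 8, without fasted replicate 2 or 4. Oxct2a and Oxct2b, the testis forms of the transferase, were not well enough measured to be tested.

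Genes of enzymes that make or convert succinyl-CoA, which OXCT1 also uses, did not pass in limma, 0 of 5 in either direction. Of the 5, 3 had an unadjusted p under 0.05, as did 8534 of the 26066 kept probes. The 5 genes had a median log2 difference of 0.10. Sucla2 and Suclg1, subunits of succinyl-CoA synthetase, each gave 0.10 ± 0.03 (SE; limma adjusted p = 0.0563 and 0.0766), and Ogdh, a subunit of the enzyme complex that makes succinyl-CoA, gave 0.15 ± 0.05 (adjusted p = 0.0755). At the brightest probe of each of these 3 genes the fasted values lay above the fed values on all arrays. Groups did not overlap for 24.8% of all kept probes. Other Ogdh probes gave 0.07 and 0.02 (limma adjusted p = 0.331 and 0.75), and their groups overlapped. Among lactate and pyruvate genes 1 of 10 rose and 0 fell. Pdk2, a kinase that inhibits pyruvate dehydrogenase, rose 1.13-fold (adjusted p = 0.0182), while another Pdk2 probe gave 0.14 (adjusted p = 0.0974), and without fasted replicate 2 the adjusted p of the first was 0.0511. Pdhb, a subunit of pyruvate dehydrogenase, gave 0.11 (adjusted p = 0.073) on its brightest probe, and 0.15 (adjusted p = 0.0241, or 0.0507 with the replicate number as a block) and 0.09 (adjusted p = 0.306) on the others. Pdk4, a further kinase of that enzyme, gave 0.21 (adjusted p = 0.0998).

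Other monocarboxylate carriers and partner proteins gave 1 rise and 0 falls among 12 measured, with a median log2 difference of 0.03. Slc16a14, a carrier whose substrate is not settled, gave -0.34 to -0.27 in fasted and -0.58 to -0.47 in fed brain. Its groups did not overlap, and it rose 1.17-fold (limma adjusted p = 0.00803). Slc16a11 gave 0.10 (adjusted p = 0.12). Nptn, which encodes neuroplastin, a partner protein of monocarboxylate transporters, gave 0.08 (adjusted p = 0.164) on its brightest probe and -0.0046 on another. Of 3 receptors for ketone bodies, lactate or short-chain fatty acids only Ffar3 was measured, and it did not pass (-0.13; adjusted p = 0.259).

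**Figure D4:**
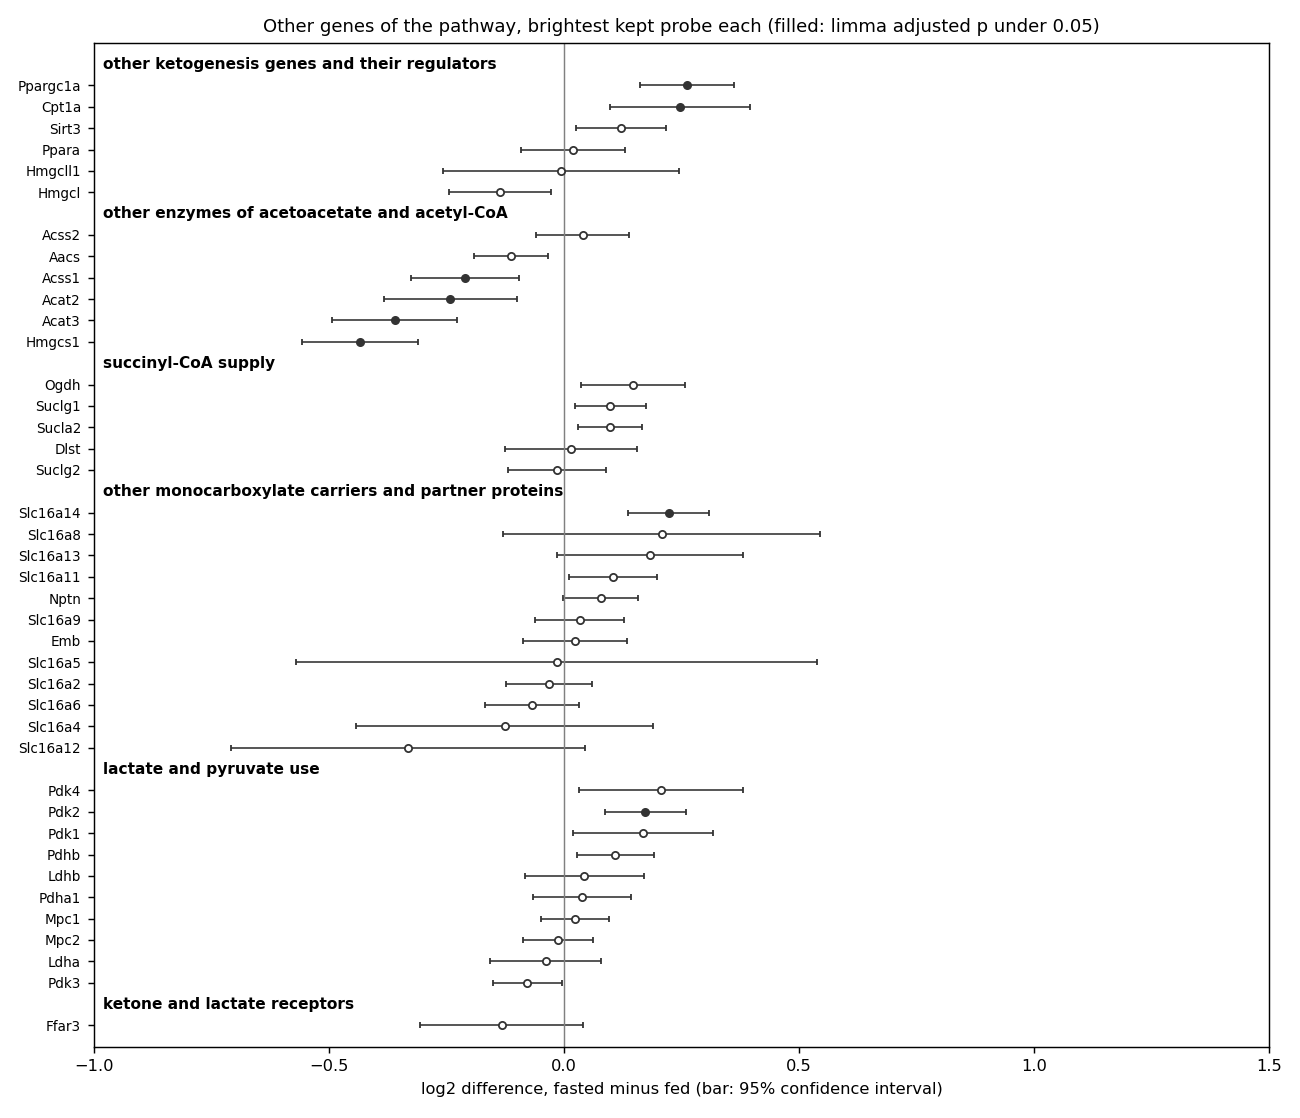
Log2 difference, fasted minus fed (horizontal axis), with 95% confidence intervals for the other genes of the pathway in 6 lists, each at its brightest kept probe and filled where the limma adjusted p was under 0.05. Ppargc1a, Cpt1a, Slc16a14 and Pdk2 are the 4 filled points to the right of 0, and Hmgcs1, Acat3, Acat2 and Acss1 are the 4 filled points to the left of 0.

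Over the 8 arrays, the genes whose pattern was most like that of Acat1 among 14889 genes were Chrnb2, Borcs7 and Hnrnpa0, each with a Pearson r of 0.99. For Bdh2 they were Cyren, Mapkapk5 and Cldn10, also each at 0.99. As many as 653 genes had an r above 0.9 with Acat1 and 287 with Bdh2, and the arrays share the fasting contrast, so these likenesses are descriptive.

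Promoters of 5 of the 8 genes were found in the RefSeq table of GRCm38.p6, as 6 sequences, since Bdh1 had 2. Those of Acat1, Slc16a7 and Bsg were not used here. The 250 bases before the start of Slc16a3, which rose on 1 probe, and of Bdh2, which fell, are shown because these genes moved in opposite directions, and capitals mark the GC box GGGCGG, searched on both strands.
Slc16a3, GRCm38.p6 chr11:120948817-120949066, plus strand: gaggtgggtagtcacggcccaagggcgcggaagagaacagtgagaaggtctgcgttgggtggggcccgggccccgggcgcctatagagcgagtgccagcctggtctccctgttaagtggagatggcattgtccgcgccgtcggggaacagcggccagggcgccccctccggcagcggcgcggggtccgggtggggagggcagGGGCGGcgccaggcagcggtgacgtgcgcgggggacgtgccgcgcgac
Bdh2, GRCm38.p6 chr3:135280971-135281220, plus strand: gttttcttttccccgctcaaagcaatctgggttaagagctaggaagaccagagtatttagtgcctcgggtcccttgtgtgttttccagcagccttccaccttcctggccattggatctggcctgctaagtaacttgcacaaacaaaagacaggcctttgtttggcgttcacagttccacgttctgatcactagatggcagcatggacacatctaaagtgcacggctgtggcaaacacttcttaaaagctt

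These stretches differ in base composition, with 73.6% GC for Slc16a3 and 48.0% for Bdh2, beside a median of 52.4% over all 32851 promoters of the table. A GC box stood in 2 of the 6 sequences, those of Slc16a3 and Slc16a1, and in 32.7% of all promoters. The nuclear receptor half-site AGGTCA, also on both strands, stood in 0 of the 6 and in 14% of all promoters, and the E-box CACGTG in 1 of the 6, that of Slc16a1, and in 6.02%. The CCAAT box stood in 1 of the 6, that of Bdh2, and in 33.8% of all promoters. The CRE half-site TGACG stood in 1 of the 6, that of Slc16a3, and in 17.8%. A match or its lack describes these letters in this window only.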

How the data were processed

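Brain RNA of 4 fasted and 4 fed samples, grouped by title, was labelled with Cy3 and hybridised, per the labels' protocols. Spot brightness is an intensity in the deposited scanner output, made with Feature Extraction 11.0.1.1 with detrending, per the file headers; version 10.10.1.1 is named in the submitters' processing notes. The array design refers to mm9. A deposited table of the series has 1 linear ratio for each spot, which equals the signal over the array's 75th percentile divided by a constant per probe (median SD over arrays 0.000179, log2). Its baseline stays unknown, its column medians were 0.970, 0.993, 0.973 and 0.987 (fasted replicates 1 to 4) and 0.987, 1.02, 0.991 and 1.02 (fed replicates 1 to 4), and it served as an alternative.

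Log2 processed signals minus each array's 75th percentile (1651 to 1944 intensity units) were tested with limma 3.58.1 in R 4.3.3 (lmFit, eBayes, two-sided, fasted minus fed, no block), with Benjamini-Hochberg adjustment over kept probes and a threshold of 0.05. Control spots and outlier-flagged spots (128 to 217 an array) were dropped, and replicate spots averaged. A probe was kept when well above background on at least 4 of 8 arrays. This kept 26066 probes. Symbols came from RefSeq (GRCm38.p6) for the 27421 probes whose accession matched, and otherwise from the files. A gene outside the 8 took its brightest kept probe; each list contributed its 3 genes of smallest p, with Acat2 added. A further gene of the ketogenesis list is not reported here. The 8 genes and all lists were chosen with earlier results of these data known, so they are not independent evidence. On simulated data for this comparison, over 26066 probes, 35.2% of probes changed 1.2-fold were recovered, 80.5% at 1.5-fold and 93.5% at 2-fold. Far fewer probes were changed in the simulation than passed in the real data, and its noise was normal and independent between probes. The adjusted threshold depends on the share of changed probes, so these figures do not give the recovery in the real comparison. The number of arrays limits the precision.

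After subtracting group means, fasted and fed arrays of the same number correlated at 0.18 to 0.29, so the replicate number is given as a block beside calls it changes; same-numbered arrays also share a slide. Alternatives were other scalings, backgrounds, filters, blocks, single slides and leaving out each array.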

Additional observations from a re-analysis of the deposited data

How the results depend on the processing

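Differences of the 11 tested ketone body probes kept their direction under all alternatives, except that Bdh1 probe A_52_P468343 gave -0.0053 within slide 1 (limma adjusted p = 0.963). The counts of probes and genes past the threshold did not hold. Of the 11 probes, 4 passed, but 2 did with median scaling, 2 with normexp background correction, 1 without the filter on dim probes, 2 with the replicate block, and 0 within slide 1 and 0 within slide 2, where 1 and 5 had an unadjusted p under 0.05. Leaving out 1 array gave 1 to 3. Of the 8 genes at their brightest probe, 2 passed, against 1 with median scaling, 1 with normexp, 1 without the filter, 1 with the replicate block, 0 within slide 1, 0 within slide 2, 1 to 2 when an array was left out, and 4 when any kept probe of the gene could count. Over all kept probes, 4417 passed, and 2605 did without the filter, 0 within slide 1 and 0 within slide 2 (5763 and 4021 had an unadjusted p under 0.05), and 2782 to 3788 when an array was left out. Fits without fasted replicate 1, fasted replicate 2 or fed replicate 2 gave 2782, 2935 and 2879. The split of higher against lower calls over all probes was 2189 to 2228, and 2014 to 1517 with median scaling. Single slides hold 2 arrays per group and the unfiltered fit adjusts over 39429 probes; otherwise the cause was not tested. The replicate block changed no call of a gene named here other than those given beside it.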

Other observations

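The split of the Slc16a7 probe between slides was shared by other, unrelated probes. Of the 26066 kept probes, 75 differed between slides by more than 1 log2 unit, 39 of them higher on slide 1. The 4 probes with larger slide differences than that of Slc16a7, which was 5.64-fold, read Fmr1nb (10.05-fold) and Syn3 (8.23-fold), both higher on slide 1, and Vmn2r59 (6.58-fold) and Pou3f4 (5.65-fold), both higher on slide 2. Each of these 4 was well above background on the 4 arrays of the slide where it was higher and on 0 of the other slide, while the Slc16a7 probe was so on 4 arrays of slide 1 and 2 of slide 2. These 4 probes were named after their values were seen, and what sets the slides apart was not tested. Of the 75 probes, 32 were well above background on all 8 arrays. Dixon's criterion flagged no single array in the 24 groups of 4 values, 12 probes in 2 groups. That outcome depends on the level set for the criterion. Fed replicate 1 of Oxct1 gave 4.14, beside 4.20 to 4.22 in the other fed arrays. With 4 values this criterion has little power, and it cannot flag a split of 2 arrays against 2 such as that of the Slc16a7 probe.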
